A study of Mus musculus with 8 samples.

Results

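Keratin-high cells are the barcodes of this series whose RNA was rich in simple-epithelium keratins and tight junction genes and poor in surfactant genes. The cells were chosen by their own measured UMIs. A barcode was a member when its summed UMIs of Krt7, Krt8, Krt18, Krt19, Epcam, Cldn4 and Cldn7 (called K) reached at least 3 and exceeded its summed UMIs of the surfactant-cell genes Sftpa1, Sftpb, Sftpd, Slc34a2 and Lamp3 (called S), with at most 1 UMI of the neutrophil receptors Csf3r and Cxcr2 and at most 1 of the macrophage genes C1qa, C1qb and C1qc. Of the 3894 barcodes with at least 200 genes, 189 were members. Tumor 1 held 172 of them, or 91.0%, and Tumor 2 held 17. Of the 232 barcodes with K of 3 or more, 36 were left out because K did not exceed S, 6 by the neutrophil limit and 1 by the macrophage limit.

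The study used calcein NVOC, a caged dye that becomes fluorescent in live cells where light is directed, to tag chosen regions of KP lung tumor slices and then profiled the sorted cells by Seq-Well, a microwell method of single-cell RNA sequencing. KP tumors carried p53 fl/fl, which Cre recombinase deletes. The mice were high-degree chimeras, made from KP embryonic stem cells placed in albino C57BL/6 blastocysts, so host cells remained in them. Adeno-SPC-Cre, in which the surfactant protein C promoter directs Cre to alveolar type 2 cells, was given into the trachea at 12 weeks of age, and tumors were taken 16 weeks later from 2 mice, 1 male and 1 female. Each tumor gave 1 library of photoactivated cells (Healthy/Tumor Border, "border") and 3 of non-photoactivated cells (Whole Tumor, arrays 1, 2 and 3). The 3 arrays were technical arrays of 1 tumor, so each p-value below measures the spread between arrays and not between mice. Inside the count tables the cell names bear the opposite tumor number, and the sample labels were followed here. The labels' numbering, unlike that of the cell names, fits the cell totals that the study gives for each tumor and region. Libraries shared 10 barcode sequences, all of them resembling the amplification primer, and 3 members had such a barcode.

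Keratins are the intermediate filament proteins of epithelia: the type II keratins Krt7 and Krt8 pair with the type I keratins Krt18 and Krt19. Alveolar type 2 cells make surfactant under the lineage factor Nkx2-1. Lung tumors of KP mice are known to begin with alveolar type 2 features and, as they advance, to hold poorly differentiated cells that lack Nkx2-1 and surfactant and express chromatin factors such as Hmga2. The genes set down as markers of the keratin-high cells beyond the keratins were Clu (a secreted chaperone), Msln (mesothelin, a surface protein of mesothelium and many carcinomas), Cdkn2a (the locus of the cell cycle inhibitors p16Ink4a and p19Arf) and Nnat (neuronatin, an imprinted gene for a small membrane protein).

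DNA of 4 genes is shown next: Ankrd1, Hmga2 and Cdkn2a, which a comparison below turns on, and Cldn4, a gene of the rule. Sequences are from RefSeq on GRCm38.p6, read 5′ to 3′ on the gene's strand. The motifs were searched on both strands in the 250 bases before each start: AP-1 (TGANTCA), TEAD (GGAATG) and NKX2-1 (CAAGTG). Ankrd1, a target of the YAP and TEAD pathway that had 0 UMIs in surfactant-type cells, held 2 TEAD matches, shown in capitals, 123 and 210 bases before its start (chr19:36119950-36119979 and chr19:36120037-36120066, minus strand). GENCODE starts the gene further upstream, at 36120099, so by that annotation both matches lie inside it.

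Ankrd1, 123 bases before the start: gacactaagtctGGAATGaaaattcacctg

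Ankrd1, 210 bases before the start: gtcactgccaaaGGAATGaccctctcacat

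Cldn4, a tight junction claudin and one of the genes that set K, held 2 AP-1 matches, in capitals, 158 and 240 bases before its start (chr5:134946935-134947184, minus strand).

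Cldn4 promoter: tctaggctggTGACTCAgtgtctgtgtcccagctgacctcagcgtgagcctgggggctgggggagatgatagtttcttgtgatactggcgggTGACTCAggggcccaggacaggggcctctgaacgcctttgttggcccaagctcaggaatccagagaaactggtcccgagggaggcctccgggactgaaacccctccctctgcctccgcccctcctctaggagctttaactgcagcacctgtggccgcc

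For Hmga2, a chromatin factor of fetal and advanced tumor cells (chr10:120476470-120476719, minus strand), and for the downstream of 2 RefSeq starts of Cdkn2a (chr4:89282193-89282442, minus strand), none of these letters was found in the window.

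Hmga2 promoter: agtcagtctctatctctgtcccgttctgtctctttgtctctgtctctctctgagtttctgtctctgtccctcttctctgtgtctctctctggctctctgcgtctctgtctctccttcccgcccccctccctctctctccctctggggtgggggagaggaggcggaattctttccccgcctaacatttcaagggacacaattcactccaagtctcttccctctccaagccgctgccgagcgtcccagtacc

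Cdkn2a promoter: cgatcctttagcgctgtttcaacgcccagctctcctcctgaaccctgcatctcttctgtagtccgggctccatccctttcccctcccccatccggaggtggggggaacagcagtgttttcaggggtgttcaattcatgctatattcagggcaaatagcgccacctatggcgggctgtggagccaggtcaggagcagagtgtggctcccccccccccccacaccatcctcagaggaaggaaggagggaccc

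Of 32851 promoter windows of this length, 6.75% held an AP-1 match, 12.6% a TEAD match and 11.6% an NKX2-1 match. Cldn4 was not typical of the genes that set K. Epcam, Krt7, Krt8 and Krt18 held 0 matches of these 3 motifs in their windows. Cldn7 held 1 TEAD match before 1 RefSeq start and 1 NKX2-1 match before another, with 0 AP-1 matches. A match describes letters and not a bound site.

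The label was checked first, and it did not hold for most members of Tumor 2. Of those 17 cells, 11 had more than 2 UMIs of 6 leukocyte genes (Ptprc, Tyrobp, Fcer1g, Laptm5, S100a8 and S100a9), and their keratin UMIs were 34 of Krt19 and 10 of Epcam with 0 of Krt7, Krt8, Krt18, Cldn4 and Cldn7. None of these 11 cells had a Clu UMI, and 1 of them held 1190 UMIs of Igha, the heavy chain of immunoglobulin A. Macrophage genes (Chi3l3, Ear2, Ctss, Mrc1, Lyz2, Car4 and Lpl) summed to more than 10 UMIs in 10 of the 17, whose K was 3 to 9. The other 6 cells had K of 7 to 42, 4 of them with Krt7 and 4 with Clu, and 1 held 191 UMIs of the club cell gene Scgb1a1. Nnat was found in 0 of the 17. Results below are therefore given for Tumor 1, where Krt7 was found in 150 of 172 members.

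In the plot of K against S, most members of Tumor 1 lay along the bottom with S near 0, while K ran over a wide range on the log axis. At the edge of the rule in Tumor 1, the 13 members with K of 3 held 762 Clu and 89.7 Nnat CPM (UMIs of a gene per 1000000 UMIs of the summed cells), and the 23 barcodes just outside with K of 2 held 485 and 154. Cdkn2a was 0 in the former and 22.1 CPM in the latter, and Msln 0 and 88.3. One step further in, the 18 members with K of 4 held 2242 CPM of Clu and 369 of Nnat. Cells just inside were also shallow, with a median of 886 UMIs against 1270 just outside.

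**Figure D1:**
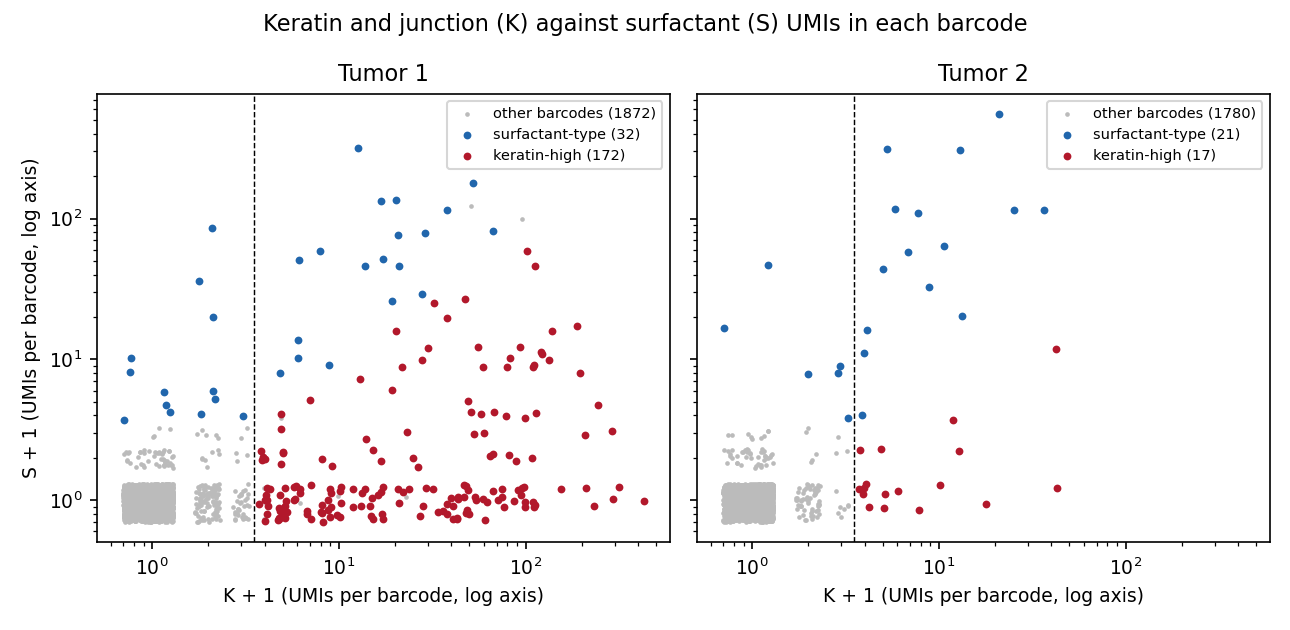
Summed keratin and junction UMIs (K + 1, x axis) against surfactant UMIs (S + 1, y axis) of each barcode with at least 200 genes in Tumor 1 and Tumor 2, both on log axes with points jittered, and a dashed line at the K threshold of 3 UMIs. The 172 keratin-high cells of Tumor 1 reach K of 428, and the 17 of Tumor 2 reach 42.

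Keratin-high cells made up 14.03% of the barcodes in Whole Tumor array 1 of Tumor 1 (63 of 449, 95% exact Clopper-Pearson interval 10.95 to 17.6%), 11.7% in array 2 (67 of 574, 9.16 to 14.6%) and 7.39% in array 3 (32 of 433, 5.11 to 10.3%), a mean of 11.03% ± 3.37 (SD, n = 3). Arrays 1 and 3 of the same tumor differed beyond counting error. At the border of Tumor 1 the share was 1.61% (10 of 620, 0.776 to 2.95%), below each Whole Tumor interval. In Tumor 2 the shares were 0.593% at the border (3 of 506, 0.122 to 1.72%) and 1.52, 0.272 and 1.30% in the arrays, with a mean of 1.03% ± 0.668 (SD, n = 3). Most members of Tumor 2 had more than 2 UMIs of the 6 leukocyte genes. Such barcodes were then taken out of the members alone and kept in the totals. The Tumor 2 shares became 0.198% at the border and a mean of 0.366% in the arrays, and the Tumor 1 shares 1.61% and 9.45%. Border cells were sorted for the photoactivated dye and the others were not, so region and sort cannot be told apart. The rule set these shares, so they are a description, and the region was not tested on them. Members had a median of 2820, 2660 and 3182 UMIs in arrays 1 to 3 of Tumor 1 and 3257 at its border, and 213727, 276748, 134010 and 39297 UMIs in all.

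**Figure D2:**
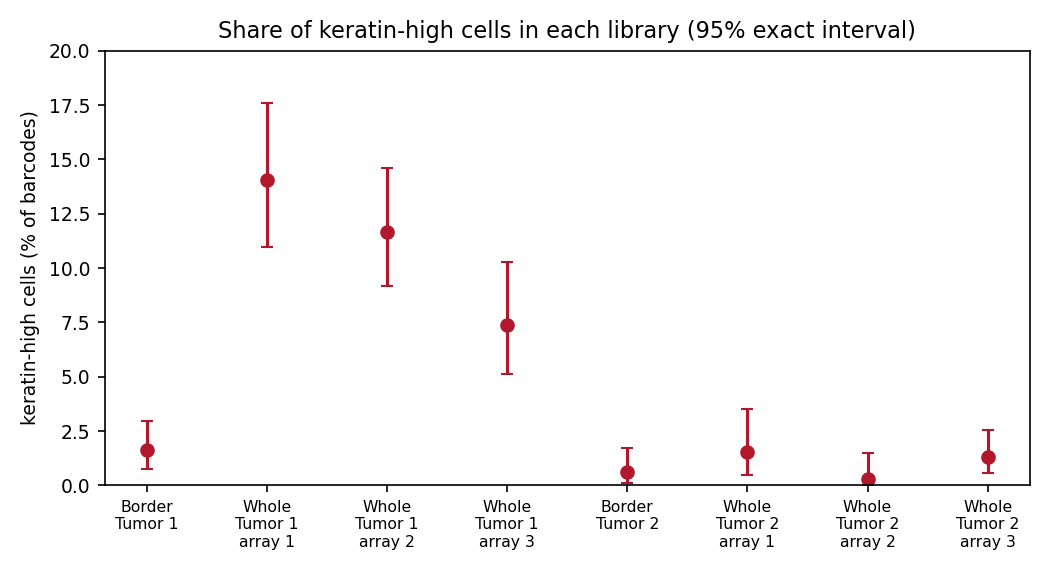
Keratin-high cells as a percentage of the barcodes with at least 200 genes in each of the 8 libraries (points), with 95% exact intervals that cover counting error only. The 3 Whole Tumor arrays of Tumor 1 (7.39 to 14.03%) stand above the other 5 libraries, all at 1.61% or less.

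The keratins that set the rule were high in every Tumor 1 library. Values of the rule's genes are a description, since they chose the cells. Krt7 (chromosome 15, 101411043 to 101430313, plus strand, GENCODE on GRCm38) was 4080, 4101 and 4791 CPM in the summed members of arrays 1, 2 and 3 and 4504 at the border. Its partner Krt18 (chromosome 15, 102028180 to 102032027, plus strand) was 3766, 4535 and 4149 CPM and 3715 at the border. Krt8 (chromosome 15, 101996698 to 102004482, minus strand) was 1053, 1583 and 2194 CPM and 1603 at the border. The levels of Krt8 spread most among the 4 keratins, while those of Krt7 and Krt18 were close in all 4 libraries. Krt19 (chromosome 11, 100140810 to 100148665, minus strand) was 1792, 2226 and 2067 CPM and 1934 at the border. The junction genes were lower: Epcam, an adhesion molecule of epithelia, was 407, 408 and 470 CPM, Cldn4 was 351, 206 and 425, and Cldn7 was 150, 137 and 149. Members held 94.4% of all Krt7 UMIs of Tumor 1, 92.2% of Krt18, 92.4% of Krt19 and 90.0% of Krt8.

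Of the markers outside the rule, Clu (chromosome 14, 65968483 to 65981547, plus strand) was the most abundant, at 8857, 9127 and 7044 CPM in arrays 1 to 3. Nnat (chromosome 2, 157560078 to 157562522, plus strand, inside the gene Blcap on the minus strand) was 1146, 1312 and 1328 CPM. Cdkn2a (chromosome 4, 89274471 to 89294653, minus strand) was 351, 434 and 493 CPM, and its UMIs do not tell its p16Ink4a and p19Arf transcripts apart. These 3 genes were at similar levels in the arrays. Msln (chromosome 17, 25748613 to 25754378, minus strand) was 459, 452 and 231 CPM. Members held 95.2% of the Nnat UMIs of Tumor 1, 87.2% of Clu, 89.8% of Msln and 88.7% of Cdkn2a. Cells of the same arrays gated as neutrophils had at least 3 UMIs of Csf3r and Cxcr2, with K and S of at most 1 each. They held 2.02 CPM of Krt7, 9.11 of Clu and 1.01 of Nnat. The limit on K fixed the low Krt7, so that value does not measure background. Of keratins outside the rule, Krt23 was 168, 228 and 187 CPM and Krt20 was 32.8, 93.9 and 59.7.

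**Figure D3:**
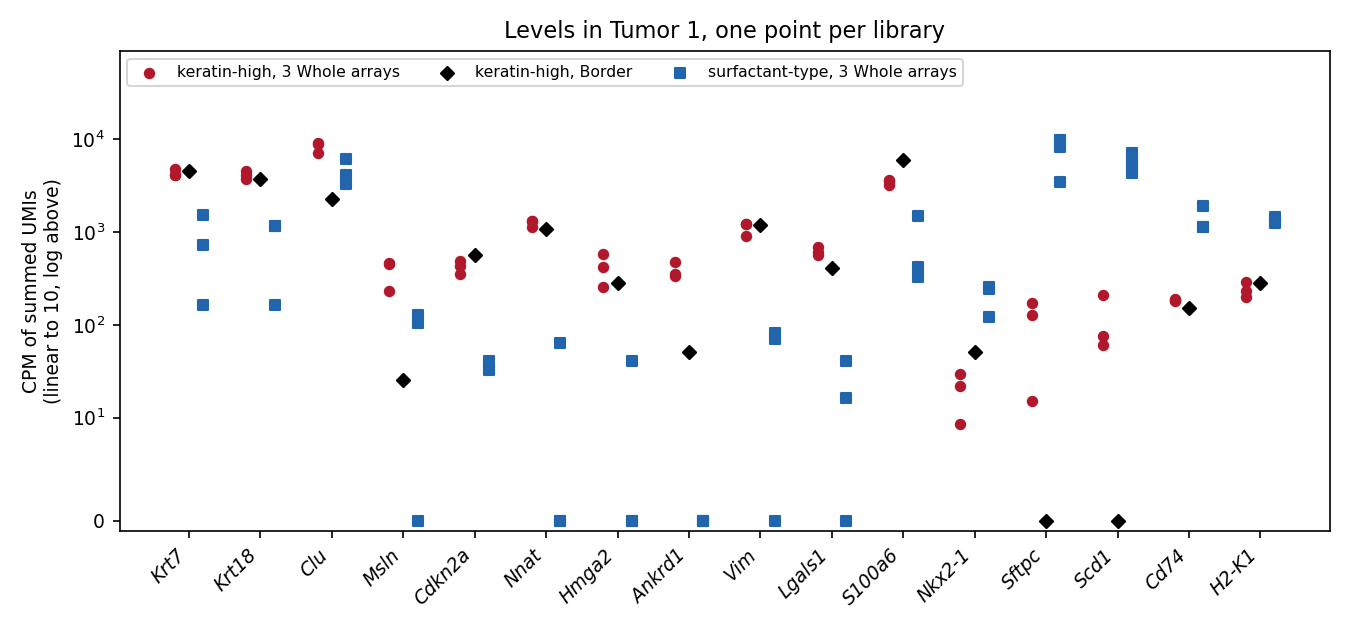
CPM of summed UMIs (y axis, linear to 10 and log above) of 16 genes in Tumor 1, with 1 point per library for keratin-high cells of the 3 Whole Tumor arrays, of the border, and for surfactant-type cells of the 3 arrays. Nnat lies at 1146 to 1328 CPM in the keratin-high arrays and at 64.4 or less in the surfactant-type cells, and Sftpc at 14.9 to 170 against 3500 to 9923.

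The 162 members of the Tumor 1 arrays varied widely among themselves. K ran from 3 through a median of 23.5 to 428 UMIs, and was at least 100 in 22 cells. Scaled to depth, K per 10000 UMIs ran from 3.02 through 86.8 to 647. By array the median K was 20, 27 and 35 and the highest 207, 294 and 428. At least 1 UMI was found in 149 cells for Krt18, 140 for Krt7, 123 for Krt8 and 121 for Krt19. The markers outside the rule were patchier: Clu was found in 139 cells, Nnat in 92, Cdkn2a in 83 and Msln in 75. All 4 of these were found together in 43 cells (15, 19 and 9 by array), with a median of 5658 UMIs and K of 77. None of the 4 was found in 12 cells (6, 4 and 2 by array), with a median of 1583.5 UMIs and K of 3.5, so the cells lacking the markers were also the shallow ones near the threshold.

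Detection was compared at equal depth by thinning each cell to 1000 UMIs, which kept 148 of the 162 members, 29 of 32 surfactant-type cells and 286 of 293 neutrophil-gate cells. Surfactant-type cells were barcodes of the same arrays with S of at least 3 that K did not exceed, under the same neutrophil and macrophage limits. Nnat was found in 37.2% of thinned keratin-high cells (56.8% before thinning), 0% of surfactant-type cells (3.1% before) and 0% of neutrophil-gate cells (0.3% before). Cdkn2a was found in 27.7% of keratin-high against 3.4% of surfactant-type cells (51.2 and 12.5% before), and Msln in 27.0 against 6.9% (46.3 and 9.4% before). Clu was less restricted, at 77.0% of keratin-high cells and 65.5% of surfactant-type cells (85.8 and 68.8% before), with 1.7% in the neutrophil gate. Median depth was 2843.5, 2950 and 2877 UMIs in the 3 classes.

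Further features divided the members. Cell cycle genes (44 genes such as Mki67 and Top2a) summed to at least 5 UMIs in 27 of 162 cells (8, 15 and 4 by array), with a highest value of 31, and to 0 in 66. The 27 cells had a median of 6772 UMIs against 2531 in the rest, so these counts moved with depth. Surfactant-cell genes were not wholly absent: S was at least 3 in 32 members (11, 14 and 7 by array) and 0 in 106, and Sftpc, which the rule did not use, was found in 10.

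The next question was how keratin-high cells differed from the surfactant-type cells beside them, another epithelial class of this tumor. UMIs were summed for each class in each Tumor 1 array (63, 67 and 32 against 10, 15 and 7 cells) and tested in edgeR by quasi-likelihood (p-values adjusted by Benjamini and Hochberg's method), with the 12 genes of the rule left out. In every array the CPM of Nnat, Vim, Cdkn2a, Cpe, S100a6 and S100a10 was higher in keratin-high cells. That of Sftpc, Scd1, Nkx2-1 and the MHC class II genes Cd74 and H2-Aa was lower. Of 1524 genes tested, 226 passed an adjusted p of 0.05 (14.8%), 88 of them higher (5.77%) and 138 lower (9.06%) in keratin-high cells, with a median log2 difference over all genes of 0.05. Because the rule set the classes by keratin against surfactant UMIs of the same cells, genes that vary with either set were placed in the comparison by it. The calls fell to 107 (25 higher, 82 lower) without array 3 and to 52 (12 higher, 40 lower) without array 2, and numbered 242 without array 1. Genes with few or no UMIs in the smaller surfactant-type sums passed the filter on low counts through the keratin-high sums. Counts and medians of tested list members below, and the adjusted p-values of such genes, are therefore descriptions and support no direction. Ankrd1, Hmga2, Tns4, Lgals1 and Axl had 0 to 2 UMIs there. Nnat and Cdkn2a had 4 each, and Vim, Cpe, S100a10, Itgb4, Lama3 and Itga3 were also low. In the same way Nkx2-1, H2-Aa, Sftpc and Scd1, low in keratin-high sums, passed through the surfactant-type sums.

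The 12 genes with the largest fitted log2 increases all had 0 UMIs in the surfactant-type cells, so their order depends on the fit and their folds are lower bounds computed against a floor of 3 UMIs over that group. They passed the filter through the group where they are high, so their adjusted p-values describe the fit and are not independent support. Ankrd1 was 351, 332 and 470 CPM in keratin-high arrays (230 UMIs), at least 14.1-fold higher (adjusted p = 0.000908). Igf2bp2, an RNA-binding protein of fetal tissue, was 192, 137 and 194 CPM, at least 6.45-fold higher (adjusted p = 0.00476). Onecut2, a homeodomain factor of liver and pancreas development, was 131, 202 and 112 CPM, at least 6.09-fold higher (adjusted p = 0.00768). Acsbg1, an acyl-CoA synthetase, was 192, 195 and 172 CPM, at least 7.25-fold higher (adjusted p = 0.00279). The others were Prkg2 (a cGMP-dependent kinase), Tnnt2 (cardiac troponin T), Smim14, Fam84a, Pitpnc1, Tpd52l1, Stc1 (the secreted hormone stanniocalcin) and Prss22 (a serine protease), with 74 to 94 UMIs each and bounds of 4.55-fold for Prss22 to 5.78-fold for Prkg2. Of these 12 genes Ankrd1 passed in all 14 alternative fits and Onecut2 in the 12 that tested it, which did not include the fit without array 2. The other 10 missed the threshold without array 2 or without array 3, with adjusted p of 0.0536 to 0.101.

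Among 23 genes linked to late-stage KP tumors, 16 were tested, and 8 were called higher (against 5.77% of all genes) and 0 lower. The list was drawn up with these data known, and of the 8 genes Ankrd1, Igf2bp2 and Onecut2 had 0 and Hmga2 and Tns4 had 1 UMI in surfactant-type cells, so this count is no evidence of a direction. Nnat was 1146, 1312 and 1328 CPM against 0, 64.4 and 0 in surfactant-type cells, and the log2 difference was 5.10 ± 0.683 (SE, adjusted p = 0.000358). Hmga2 was 421, 253 and 582 CPM against 40.8, 0 and 0. With 238 against 1 UMIs its ratio was 43.9, with a counting interval of 7.80 to 1741 (adjusted p = 0.00192). Tns4, a focal adhesion protein of epithelial cancers, was 416, 394 and 418 CPM against 0, 0 and 35.0 (254 against 1 UMIs, a ratio of 46.8 with a counting interval of 8.33 to 1857, adjusted p = 0.00094). Cpe, a carboxypeptidase that trims peptide hormones, was 613, 506 and 388 CPM against 0, 64.4 and 0 (log2 difference 3.77 ± 0.707, adjusted p = 0.00279, and a log2 difference of 8.65 without array 2). Cdkn2a was 351, 434 and 493 CPM against 40.8, 32.2 and 35.0, a log2 difference of 3.45 ± 0.581 (adjusted p = 0.00138, and 0.0575 without array 2). The list had 8, 5 and 8 calls without array 1, 2 and 3. In each of these 5 genes the lowest keratin-high array lay above the highest surfactant-type array. This describes their levels only, since all 5 passed the filter on low counts through keratin-high cells.

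Clu and Msln, which are markers of the members, did not pass. Clu was 3264, 4108 and 6195 CPM in surfactant-type cells, and the log2 difference was 0.78 ± 0.424 (SE, adjusted p = 0.243), although the 2 sets of arrays did not overlap. Msln was 0, 129 and 105 CPM there against 459, 452 and 231, with a log2 difference of 1.95 ± 0.62 (adjusted p = 0.05001). That value lay at the threshold, and Msln passed in 9 of 14 alternative fits, among them DESeq2 (adjusted p = 0.0281), library sizes alone (0.0365), no filter on low counts (0.0028), barcodes of at least 500 genes (log2 difference 5.13, 0.00157) and no leukocyte-rich barcodes (0.0369). It did not pass without array 1, 2 or 3 (0.107, 0.167 and 0.114). Ccnd1, the cyclin that drives entry into the cell cycle, was 477, 564 and 828 CPM against 204, 242 and 280 (log2 difference 1.24, adjusted p = 0.0731).

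Of 17 annexin and S100 genes, which encode calcium-binding proteins of the membrane and cytoskeleton, 14 were tested, 6 were higher (against 5.77% of all genes) and 0 lower, with a median log2 difference of 1.12. S100a6 was 3621, 3238 and 3567 CPM against 326, 1498 and 420 (log2 difference 2.01 ± 0.554, adjusted p = 0.0267, and 0.175 without array 3). Anxa2 was 2171, 2497 and 2313 CPM against 163, 596 and 420 (2.37 ± 0.482, adjusted p = 0.00489, but 0.0571 without array 2 and 0.0730 without array 3). S100a10, the partner of Anxa2, was 692, 582 and 1007 CPM against 0, 80.5 and 35.0 (3.79 ± 0.632, adjusted p = 0.00131). S100a10 passed in every alternative fit, and the list kept 5, 2 and 1 calls without array 1, 2 and 3. Anxa1 was 926, 983 and 858 CPM against 530, 918 and 280 and did not pass (adjusted p = 0.501).

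Mesenchymal and matrix genes were mixed. Of 16 genes of the epithelial-mesenchymal list 7 were tested, and Vim and Axl were higher (against 5.77%), with a median log2 difference of 1.36. Vim, the intermediate filament of mesenchyme, was 1212, 1225 and 903 CPM against 81.6, 0 and 70.0 (4.75 ± 0.702, adjusted p = 0.000686). It was found in 59 of 162 members, and members held 29.7% of the Vim UMIs of Tumor 1. Lgals1, a secreted galectin, was 571, 611 and 687 CPM against 40.8, 16.1 and 0 (383 against 2 UMIs, a ratio of 35.3 with a counting interval of 9.71 to 293, adjusted p = 0.000402). Axl, a receptor tyrosine kinase, was 131, 192 and 216 CPM against 40.8, 0 and 0 (110 against 1 UMIs, a ratio of 20.3 with a counting interval of 3.57 to 808, adjusted p = 0.00931, but 0.162 without array 2 and 0.0842 without array 3). Fibronectin, Fn1, also on this list, had 659 UMIs in the members of the Tumor 1 arrays and was not called. The transcription factor Snai2 had 0 UMIs in these members, Cdh2 was found in 2 cells and Zeb1 in 9. E-cadherin, Cdh1, was 454, 340 and 612 CPM against 694, 612 and 875 (log2 difference -0.73, adjusted p = 0.255), and of 16 epithelial adhesion genes 10 were tested and 0 passed in edgeR, 0 at an unadjusted p under 0.05 and 0 in DESeq2. The mesenchymal list had 3, 1 and 1 calls without array 1, 2 and 3.

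Of 16 laminin and integrin genes, which anchor epithelia to the basement membrane, 13 were tested and 3 were higher (against 5.77% of all genes), with a median log2 difference of 0.46. Itga3 was 323, 231 and 604 CPM against 81.6, 80.5 and 105 (1.99 ± 0.577, adjusted p = 0.0312). Lama3 was 533, 416 and 298 CPM against 0, 145 and 0 (2.42 ± 0.716, adjusted p = 0.0360), with a log2 difference of 8.39 without array 2. Itgb4 was 192, 141 and 157 CPM against 0, 48.3 and 0 (adjusted p = 0.0354, and 0.0618 with the array as a block). Lamb3, another laminin chain, was 323, 166 and 239 CPM against 40.8, 532 and 70.0 (log2 difference -0.23, adjusted p = 0.843). Without array 1 Lama3 (adjusted p = 0.0755) and Itgb4 (0.103) were lost, without array 2 Itga3 (0.120) and Itgb4 (0.0823), and without array 3 all of them, Itga3 with 0.138. The list had 2, 1 and 0 calls in these fits. All 3 called genes passed the filter on low counts through keratin-high cells, so their adjusted p-values are not independent support.

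Alveolar type 2 genes were lower: of 17 genes outside the rule, 14 were tested and 13 were lower (against 9.06% of all genes), with a median log2 difference of -3.95. The classes were set by surfactant genes, so this count describes the contrast that the rule made. Sftpc, the most specific surfactant protein, was 126, 170 and 14.9 CPM in keratin-high arrays against 8201, 9923 and 3500 (-6.17 ± 0.748, adjusted p = 0.000274). Scd1, a desaturase of lipid synthesis, was 60.8, 75.9 and 209 CPM against 7181, 5541 and 4375 (-5.77 ± 0.596, adjusted p = 0.000127). Chi3l1, a chitinase-like protein, was 342, 119 and 306 CPM against 2611, 4881 and 8820 (-4.51 ± 0.605, adjusted p = 0.000358). The largest decreases also took in Cxcl15 (lungkine), Napsa (a surfactant-processing protease), Lyz2 (lysozyme), Dram1 (an autophagy protein), Lcn2 (lipocalin), Hp (haptoglobin), Ager (the receptor of alveolar type 1 cells) and the membrane proteins Atp11a and Atp1b1, between -5.30 for Cxcl15 and -4.15 for Lyz2. The alveolar type 2 list had 13, 8 and 10 calls without array 1, 2 and 3. Of the 12 largest decreases all but Lyz2 passed in every alternative fit that tested them (13 for Ager and 14 for the others), and Lyz2 had an adjusted p of 0.155 without array 2. Decreased genes low in keratin-high sums, among them Sftpc and Scd1, passed the filter on low counts through surfactant-type cells. Their adjusted p-values, in any of these fits, are therefore not independent support. Ctsh, a lysosomal protease and the tested gene of the list that was not called, was 407, 477 and 440 CPM against 449, 1466 and 875 (adjusted p = 0.0845).

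Nkx2-1, the lung lineage factor, was 9.36, 21.7 and 29.8 CPM against 122, 258 and 245 (-3.56 ± 0.558, adjusted p = 0.000896). It passed the filter on low counts through surfactant-type cells, so its adjusted p is not independent support. It was found in 8 of 162 members. The other lineage factors were sparse: Sox2 was at 0 in members, Hnf4a was found in 13, Foxa1 in 19 and Sox9 in 26 cells, and of the 14 factors listed 5 could be tested and only Nkx2-1 was called.

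The tested MHC class II genes and some of class I were lower in keratin-high cells. All 4 tested MHC class II genes of 7 were lower (against 9.06% of all genes), with a median log2 difference of -3.15. Cd74 is also on the alveolar type 2 list, so both counts hold it. Cd74, the invariant chain, was 187, 192 and 179 CPM against 1142, 1144 and 1890 (-2.99 ± 0.412, adjusted p = 0.000406), and H2-Aa was 65.5, 14.5 and 37.3 against 408, 435 and 350 (-3.49 ± 0.524, adjusted p = 0.00072). They numbered 4, 4 and 3 without array 1, 2 and 3. Of 16 MHC class I pathway genes 6 were tested and 2 were lower, against 9.06% of all genes. H2-K1 was 201, 231 and 291 CPM against 1265, 1450 and 1295 (-2.59 ± 0.398, adjusted p = 0.000796). H2-D1 was 342, 372 and 276 CPM against 1061, 1063 and 1155 (-1.82 ± 0.381, adjusted p = 0.00576, but 0.0889 without array 2, 0.124 without array 3 and 0.300 without a filter on low counts). B2m, the shared light chain, was 412, 336 and 343 CPM against 490, 854 and 1085 and missed the threshold (-1.27, adjusted p = 0.0541). The H2 genes share sequence with close paralogs, so their reads may have been split between copies. Surfactant-type sums also held more UMIs of the macrophage list (36.3, 16.3 and 7.0 per 10000 against 8.94, 1.30 and 1.04 in members) and of the neutrophil list (17.1, 19.01 and 9.80 against 3.74, 2.49 and 1.19). Lyz2 gave 155 of the 210 macrophage UMIs there and Lcn2 gave 153 of the 188 neutrophil UMIs, and Lyz2 is also on the alveolar type 2 list. Mrc1 and Retnlg, which the rule did not use, were at 0, and S100a9 had 15 UMIs, all in array 1. Mitochondrial UMIs were 224, 119 and 104 per 10000 against 45.1, 57.9 and 153. Their part in the decreases of the MHC genes, Lyz2 and Lcn2 was not tested.

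Other pathways are given by their lists. Of 17 immediate early and stress genes 16 were tested and 5 were lower (Hspa1b, Atf3, Fos, Egr1 and Jund), against 9.06% called lower among all genes, with a median of -1.16 (adjusted p with the array as a block 0.0732 for Hspa1b and 0.0977 for Jund), but the count was 0 without array 2, 0 without array 3 and 2 with library sizes alone. Without a filter on low counts all 5 of these genes lost their call, with edgeR adjusted p of 0.0643 for Hspa1b to 0.581 for Jund. Fos was 384, 416 and 463 CPM against 1428, 1981 and 560 (-1.80 ± 0.475, adjusted p = 0.0218), and without array 2 its adjusted p was 0.260. Of 30 antioxidant genes 17 were tested, with the peroxiredoxins Prdx2 and Prdx5 higher and Mgst1 and Gclc lower, against 14.8% of all genes in either direction (Prdx5 had an adjusted p of 0.0667 with the array as a block, and neither peroxiredoxin was called without array 2 or array 3). Mgst1 had an adjusted p of 0.103 without array 2, and Gclc of 0.0576 without array 1, 0.126 without array 3 and 0.0917 without a filter. Glycolysis and hypoxia genes had 0 calls in edgeR among 18 tested (median 0.28), 1 at an unadjusted p under 0.05 and 0 in DESeq2, and translation factors 0 among 13 (median 0.73), 1 and 0. Ribosomal protein genes had 1 call, Rplp1, among 43 (median 0.53), and its adjusted p of 0.0129 became 0.132 without array 2 and 0.0886 without array 3. Of 11 tested genes of transitional alveolar epithelium only Plaur, the urokinase receptor, was higher (adjusted p = 0.0467), and it lost its call in 7 of 14 alternative fits, among them DESeq2 (0.0697), the array as a block (0.105) and each fit without an array (0.0877 to 0.171). Of 13 tested cytokine genes only Lcn2 was called. Checkpoint ligands and p53 targets each had 2 tested genes and 0 calls in edgeR or DESeq2, with 1 each at an unadjusted p under 0.05. Cell cycle genes were too sparse for any of the 44 to be tested.

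**Figure D4:**
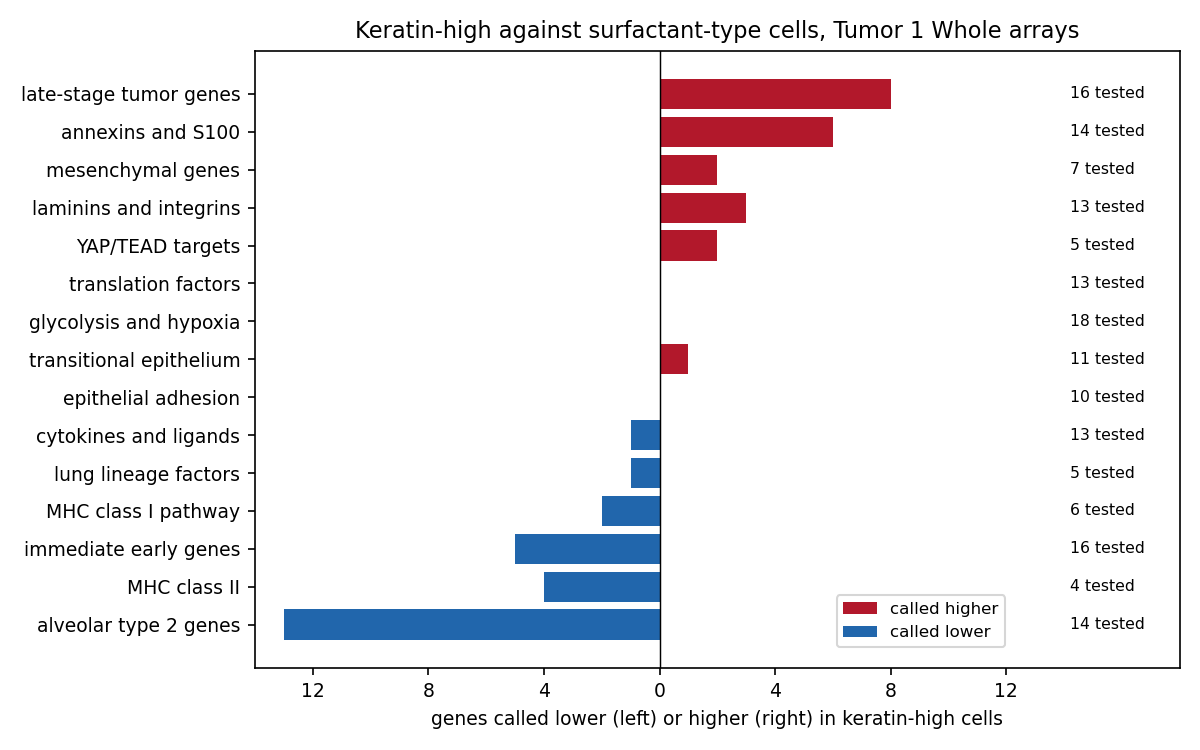
Genes called lower (bars to the left) or higher (bars to the right) in keratin-high against surfactant-type cells of the Tumor 1 arrays, for 15 gene lists, with the number of tested genes of each list at the right. Late-stage tumor genes have 8 of 16 tested genes called higher (5.77% of all genes) and alveolar type 2 genes 13 of 14 called lower (9.06% of all genes). The called late-stage genes had few or no UMIs in surfactant-type cells, and the rule made the alveolar type 2 contrast. Both counts are therefore descriptions.

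Markers of other cell types were low in the members of the Tumor 1 arrays, though not absent. Mesothelial markers, relevant since mesothelium expresses keratins and Msln, had 6 of 12 genes at 0, among them Wt1 and Lrrn4, and Upk3b had 2 UMIs. Of their 642 UMIs, 537 were Bgn and 85 C3. Airway markers had 8 of 12 at 0, among them Scgb1a1 and Foxj1, and 29 UMIs in all. Neutrophil markers reached 3.74, 2.49 and 1.19 UMIs per 10000 by array, against 107 in the neutrophil gate. Macrophage markers reached 8.94, 1.30 and 1.04, against 284 in the C1q gate. Both contrasts are in part set by selection, since Csf3r, Cxcr2, C1qa, C1qb and C1qc are on these lists, were limited to 1 UMI in members and chose the gates. Pan-leukocyte genes reached 9.59, 6.25 and 1.94 per 10000, none of the 11 at 0. Of the members 13, 8 and 2 had more than 2 UMIs of the 6 leukocyte genes named above. Array 1 was thus highest in each of the 3 leukocyte lists. Without members of more than 2 leukocyte UMIs, 243 genes were called against surfactant-type cells, 191 of them among the 226. Endothelial genes gave 75 UMIs, fibroblast genes 76, B cell genes 30 and T and NK genes 8, out of 624485. Igha was concentrated, with 2936 of its 2941 UMIs in 2 members with K of 4 and 5.

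Transcripts of the sex chromosomes separated members from neutrophils of the same tumor. Xist, the RNA of the inactive X chromosome, was 28.1, 97.6 and 14.9 CPM in members of arrays 1 to 3 (46.9 ± 44.4, SD, n = 3) against 514, 627 and 365 CPM in the neutrophil gate (502 ± 131). The 4 Y-linked genes Ddx3y, Eif2s3y, Kdm5d and Uty summed to 126, 134 and 104 CPM in members (121 ± 15.2) against 53.9, 10.5 and 0 in the neutrophil gate (21.5 ± 28.6). Neither pair of ranges overlapped, and the exact permutation p was 0.1 for both, two-sided, the smallest that 3 against 3 arrays allow. Surfactant-type cells had 0 CPM of Xist and 122, 177 and 210 of the Y-linked genes in the 3 arrays, and the 10 border members had 0 Xist and 7 Y-linked UMIs. Single members were sparse, with Xist in 15 and a Y-linked UMI in 44 of 162 cells. The mice were chimeras of injected and host cells, and which cells came from which was not tested.

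The last comparison asked whether keratin-high cells differed between border and Whole Tumor in Tumor 1. In the border library of 10 cells Clu, Msln, Fn1, Spp1 and Cst3 were lower, and 16 genes, among them those for the laminin chains Lama3 and Lamb3, were higher, each with most of its border UMIs in a single cell. Of 4039 genes tested by edgeR, 21 passed (0.520%), 16 higher (0.396%) and 5 lower (0.124%) at the border, with a median log2 difference of -0.23, or 0.05 with library sizes alone, which called 23 higher and 3 lower. The count and its direction depended on the arrays: 64, 74 and 73 genes were called without array 1, 2 and 3, of which 32, 34 and 35 were higher, and the 21 genes were among them each time. With the single border library assumed to vary like the Whole Tumor arrays, the test compares these libraries and not the regions, and the adjusted p-values below carry no measure of the spread between border samples.

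Both laminin genes were far higher at the border. Lama3 was 2850 CPM against 533, 416 and 298 (2.48 ± 0.366, adjusted p = 0.00214) and Lamb3 1476 against 323, 166 and 239 (2.32 ± 0.390, adjusted p = 0.00677). They had 170 UMIs in the border cells, and 138 of them (81.2%) lay in 1 cell of 4616 UMIs. Another 5 border cells had any, so 6 of 10 in all, against 85 of 162 in the arrays, where no cell exceeded 27. Without that cell Lama3 fell to a log2 difference of 0.47 (adjusted p = 0.649) and Lamb3 reversed to -1.16.

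The other increases were as uneven. Gramd1b, a sterol transfer protein, had all 29 of its border UMIs in 1 cell, against 3 UMIs in the arrays (6.80 ± 0.717, adjusted p = 9.67e-05). Ndrg1, a hypoxia-induced gene, had 68 of 69 UMIs in 1 cell, and Atp1b1, a sodium pump subunit, 19 of 19. Dsp, which links keratins to desmosomes, had 36 of 53 (2.80 ± 0.381, adjusted p = 0.00151, but 0.273 without the Gramd1b cell and 0.402 without that and the Lama3 and Lamb3 cell), and the metallothionein Mt1 had 55 of 95. Over the 16 genes the top cell held 56.5 to 100% of the border UMIs, with a median of 86.8%. In a joint fit with the surfactant-type sums of the tumor 1 gene, Gramd1b, was called, and Dsp had an adjusted p of 0.0755. Without the cell with the most Gramd1b UMIs 7 genes were called, without the cell with the most Lama3 and Lamb3 UMIs 17, and without both 2.

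Of the 5 genes called lower, only Clu had more than 2 UMIs at the border. Clu was 2290 CPM at the border against 8857, 9127 and 7044 in the arrays (-2.15 ± 0.446, adjusted p = 0.0310). It was found in 8 of the 10 border cells, so its 90 UMIs were spread, and its adjusted p was 0.0605 with library sizes alone and 0.0957 without both of the cells above. Fn1, fibronectin, was 50.9 CPM against 767, 1453 and 694 (2 against 659 UMIs, a ratio of 0.0482 with a counting interval of 0.00583 to 0.175, adjusted p = 0.00694), and 274 of the 659 lay in 1 cell of the arrays. Spp1, osteopontin, was 50.9 CPM against 501, 629 and 634 (2 against 366 UMIs, a ratio of 0.0868 with a counting interval of 0.0105 to 0.316, adjusted p = 0.0094, but 0.0795 with DESeq2 and 0.084 without both cells). In the joint fit Clu, Fn1 and Spp1 had adjusted p of 0.695, 0.299 and 0.541. Msln had 1 UMI against 254, a ratio of 0.0626 with a counting interval of 0.00158 to 0.352, with an adjusted p of 0.0467, of 0.0658 with library sizes alone, 0.386 with DESeq2, 0.373 in the joint fit and 0.150 without both cells. Cst3, a secreted protease inhibitor, had 0 against 161 UMIs, at least 3.38-fold lower (adjusted p = 0.0270, but 0.328 with DESeq2, 0.290 in the joint fit and 0.0957 without both cells).

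**Figure D5:**
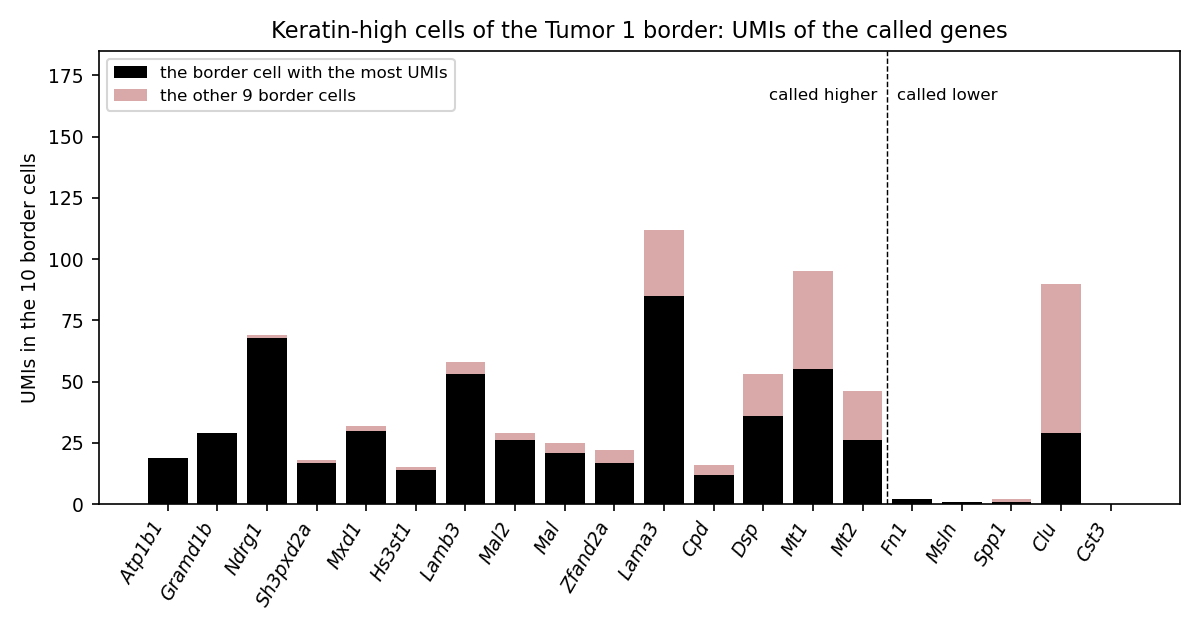
UMIs in the 10 keratin-high cells of the Tumor 1 border (y axis) for 20 of the 21 genes called between border and Whole Tumor, with the cell that holds the most UMIs of each gene in black and the other border cells in pink. For the 15 genes shown as called higher the black part is over 50% of the bar, and Clu, called lower, has 29 of 90 UMIs in its top cell.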

How the data were processed

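Seq-Well single-cell RNA libraries of 2 KP lung tumors, 1 border and 3 Whole Tumor arrays each, were used. The authors followed the Drop-seq protocol with STAR 2.5.2b (bcl2fastq 2.17.1.14), aligned to mm10, and deposited raw UMI counts of 27923 genes in 4343 barcodes. The 449 barcodes with fewer than 200 genes were left out. Libraries of Tumor 1 held 1027143 to 2029200 UMIs. Members and gene lists were chosen with earlier results of these data known. Scrublet (scanpy 1.11.5) called 57 doublets (1.46%), 7 of them members, which stayed in except in 1 alternative. UMIs were summed per array and class and tested with edgeR 4.0.16 (R 4.3.3) by its quasi-likelihood F-test, after TMM scaling and filterByExpr, with p-values adjusted by Benjamini and Hochberg's method. DESeq2 1.42.0, other scalings and filters, other thresholds of the rule and leaving out each array or groups of barcodes were alternatives. Fits were tested on simulated counts with 4-fold changes in 200 genes. The fit against surfactant-type cells recovered 85.6% of increases and 42.6% of decreases, with 4.19% of its calls false. The border fit recovered 26.6% of increases and 3.6% of decreases, with 2.58% of its calls false. A gene without a call at the border may therefore still differ.

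Named were the genes of the rule and its markers, the 12 largest called differences in each direction against surfactant-type cells (at least 50 UMIs and the same direction in all arrays), the 8 largest at the border where reported, and 2 to 4 list members with the most UMIs. Further genes, among them Lgals1, Nkx2-1, Snai2, Cdh2, Zeb1, Krt20, Ndrg1, Mt1 and Lamb3, were named after their values were seen. Both classes came from the same arrays, which pairs their sums, and their deviations from the class means correlated at 0.142, 0.0877 and 0.0955. Intervals cover counting error only. Gene positions are from GENCODE vM21 on GRCm38 and promoters from RefSeq on GRCm38.p6. A few items and the rest of the study are not reported here.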

Additional observations from a re-analysis of the deposited data

How the results depend on the processing

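The surfactant-type class held 10, 15 and 7 cells and the border 10, and both comparisons rest on technical arrays of 1 mouse. Against surfactant-type cells, 226 genes were called, and 410 (272 higher, 138 lower of 15471 tested) without a filter on low counts. Leaving out 1 array gave 52 to 242 calls. Calls numbered 206 to 243 under the 9 other alternatives without a block, and with the array number as a replicate block, which pairs the sums, 177 (62 higher, 115 lower). Among the genes named and the list members called there, 881 of 993 refitted values stayed on the same side of the threshold, 9 passed that had not, 103 lost their call and 0 reversed. For the border, 21 calls became 13 with DESeq2, 53 without a filter, 42 with thresholds of 5 UMIs for K and S, 43 with barcodes of at least 500 genes, 1 in 1 fit with the surfactant-type sums, and 64 to 74 without 1 array. No paired analysis was possible for the border because it had 1 library. Of the border calls 76.2% were higher, 88.5% with library sizes alone, and 45.9 to 54.8% without 1 array, without a filter, with thresholds of 5 UMIs or with at least 500 genes. Fits without single border cells or without primer-like or immunoglobulin-rich barcodes were chosen after seeing the data. So were shares with leukocyte-rich or immunoglobulin-rich barcodes taken out of the members alone. Without the cell with the most Lama3 and Lamb3 UMIs Sh3pxd2a reversed to -1.36 and Lamb3 to -1.16. Without the Gramd1b cell 7 genes were called, and Atp1b1 reversed to -6.28, Hs3st1 to -0.91, Mxd1 to -1.22 and Ndrg1 to -3.38. Without both, 2 were called, and the values were -6.28 for Atp1b1, -1.02 for Sh3pxd2a, -0.80 for Hs3st1, -0.47 for Lama3, -0.25 for Mal, -1.54 for Lamb3, -1.11 for Mxd1 and -3.27 for Ndrg1. These fits leave out the cell that held most of the UMIs. The mean share of members in the Whole Tumor arrays of Tumor 2 was 1.03%, 1.70% with barcodes of at least 500 genes and 0.521% at a K threshold of 5. With leukocyte-rich barcodes taken out of the members alone it was 0.366%, and the cause was not tested. At the Tumor 1 border a K threshold of 5 gave 0.968% against 1.61%.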

Other observations

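Mcpt8 (chromosome 14, 56082166 to 56085273, minus strand), the gene of a basophil protease, was 173, 282 and 224 CPM in keratin-high cells of Tumor 1 arrays 1 to 3 against 0, 0 and 35.0 in surfactant-type cells (145 against 1 UMIs, a ratio of 26.7 with a counting interval of 4.72 to 1063, edgeR adjusted p = 0.00466, and 0.111 without array 2). It was found in 34 of 162 members, with up to 20 UMIs in a cell, and members held 94.8% of the Mcpt8 UMIs of Tumor 1. Another 6 basophil and mast cell genes (Cd200r3, Gata2, Fcer1a, Prss34, Cpa3 and Ms4a2) had 2 UMIs in all 162 members and 0 in the 34 cells with Mcpt8. Mcpt8 was chosen after its values were seen and passed the filter on low counts through keratin-high cells, so its adjusted p is not independent support.

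Genes next to Cdkn2a on chromosome 4 were also measured, and were likewise chosen after their values were seen, so the test of Mtap is not independent support. Mtap (89137122 to 89181081, plus strand), an enzyme of methionine salvage, was 126, 275 and 366 CPM in members against 0, 16.1 and 35.0 (152 against 2 UMIs, a ratio of 14.01 with a counting interval of 3.81 to 117, edgeR adjusted p = 0.0100, but 0.157 without array 2 and 0.0652 without array 3). Cdkn2b (89306299 to 89311039, minus strand), which encodes the inhibitor p15Ink4b, was 93.6, 105 and 67.2 CPM in members, with too few UMIs to be tested. Blcap, the gene around Nnat, was 37.4, 14.5 and 29.8 CPM in members, far below Nnat at 1146 to 1328.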
